A study of Mus musculus with 7 samples.

Results

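The m6A peaks described here are those of injured mouse muscle that lie in coding sequence (CDS) and for which the authors' table lists no GGAC, the core of the m6A consensus sequence. They were chosen from 2 columns of that table, the annotation of the peak as CDS and a listed number of GGAC positions of 0. This gave 268 peaks on 241 genes. They are 15.5% of the 1726 CDS peaks (95% interval 13.9 to 17.3 by Wilson's method, which covers counting error and nothing else) among 5412 peaks in 3983 genes. The other 1458 CDS peaks, with at least 1 listed GGAC, serve as the comparison. Since the choice used the listed GGAC and not the enrichment of a peak, the enrichment, the genes and the presence of these genes in a second list could be compared. No member overlaps another member apart from 4 pairs, so the 268 peaks cover 264 separate regions.

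The muscle libraries come from Pax7CreERT2; METTL3 flox/flox mice (METTL3 cKO) and Pax7CreERT2; METTL3 wt/wt mice (CTL) on a C57BL/6 background. Both genotypes carry the Pax7-driven, tamoxifen-inducible Cre, both received tamoxifen and then cardiotoxin (CTX) in the tibialis anterior muscle, and the tissue was taken at day 2. Each genotype has 1 immunoprecipitated (IP) library and 1 input library, and the age of the mice is not given in the labels. The table gives 1 set of values per peak for the 4 libraries together, so nothing below compares the genotypes, no value has a replicate check, and the depth is unknown. Its columns on the authors' genotype comparison put every listed peak at or near the usual FDR threshold or below it. The table thus seems to hold only peaks that differed between the METTL3 cKO and CTL libraries, and shares and enrichments below describe such peaks and not all m6A peaks of the muscle. Pax7 marks muscle stem cells, the only cells in which the Cre driver should act, and the labels name the cell type as muscle stem cell but the source as muscle. Of the markers of muscle stem cells, 5 of 8 have a peak in the table (Pax7, Myod1, Itga7, Cd34 and Sdc4). So have 1 of 8 myofibre markers (Ttn), 4 of 8 of macrophages, 2 of 6 of fibroblasts, 1 of 4 of endothelium and 1 of 4 of neutrophils. A peak says that the transcript was present and gives no level, and a missing peak does not mean that the transcript was absent. These marker counts are therefore no measure of the mix of cells. In bulk tissue fewer cells of a type and less RNA per cell cannot be told apart.

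N6-methyladenosine is placed on mRNA by a complex whose catalytic subunit is METTL3, which acts together with METTL14 and WTAP. The complex methylates the adenosine of a short consensus, of which GGAC is the best known form, and other forms keep the AC and vary the bases before it. Methylated sites are dense in long internal exons and around stop codons, and reader proteins of the YTH family bind them and alter the translation or decay of the mRNA. In MeRIP-Seq, fragments of mRNA are captured with an antibody against m6A and sequenced beside the input. The fold enrichment of a peak is the ratio of IP to input at its position, as the authors' peak caller gave it. A peak is much wider than the methylated base, so a peak can hold the base with or without a GGAC inside its borders.

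Sequence could be read for a portion of 8 members, those that overlap a RefSeq promoter window (250 bases before to 50 after a gene start, GRCm38.p6). The 802 bases read on the strand of the gene hold 0 GGAC, as the table lists. In the same windows, the CDS peaks with a listed GGAC hold 55 GGAC in 12049 bases. Of these, the table lists 50, each 1 base after the first G. Peaks of other classes without a listed GGAC held 5 GGAC in 3914 bases, in 2 of their 54 stretches. Over all peaks 170 GGAC were read and 154 were listed there. The listing is therefore not complete, and absence of GGAC was not checked in the bases of members that were not read. Throughout, a peak without GGAC means a peak for which none is listed. Searched on the same strand were also AGAC and TGAC, which change the first base of GGAC, and the forms GAAC as well as AAAC and also TAAC, which have A as their second base. None of these can overlap another or GGAC. They occur 6 times in the members' stretches, 0.748 per 100 bases, against 1.19 per 100 bases in the stretches of CDS peaks with GGAC. In the stretches of peaks of other classes without a listed GGAC they occur at 1.64 per 100 bases, and in all windows at 1.62. With 6 matches in 802 bases the members' rate is uncertain. In whole windows of 300 bases, longer than any of the members' stretches, such matches are common. At least 1 of these variants is found in 97.8% of all 32851 windows, AGAC in 66.4%, TGAC in 63.2%, GAAC in 60.3%, AAAC in 62.1%, TAAC in 42.0% and GGAC in 65.6%. A match is a description and not a methylated site.

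The sequences below show what a peak without GGAC can look like at its bases. They are printed 5′ to 3′ from the first ATG that opens a frame without a stop codon to the end of the stretch read, with the variants listed above in capitals. Ndufaf4, which encodes an assembly factor of respiratory complex I, is read at chr4:24898167-24898351 on the plus strand. Brix1, a ribosome biogenesis factor, is read at chr15:10485768-10485893 on the minus strand, and Bccip, a BRCA2-interacting protein, at chr7:133709358-133709453 on the plus strand. Cmya5, a large protein of the muscle Z-disc region, is read at chr13:93094583-93094656 on the minus strand. The windows read for Cmya5 and Ndufaf4 are those of other gene entries. The Cmya5 peak lies at 48.2% of the gene's span, so the ATG printed for it should not be taken as the start of the protein. Ndufab1, the mitochondrial acyl carrier protein, is read at chr7:122101799-122101822 on the minus strand.
Ndufaf4: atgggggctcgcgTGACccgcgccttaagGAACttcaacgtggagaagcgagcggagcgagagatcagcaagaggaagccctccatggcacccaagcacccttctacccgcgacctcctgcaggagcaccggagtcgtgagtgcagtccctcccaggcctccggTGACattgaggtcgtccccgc
Brix1: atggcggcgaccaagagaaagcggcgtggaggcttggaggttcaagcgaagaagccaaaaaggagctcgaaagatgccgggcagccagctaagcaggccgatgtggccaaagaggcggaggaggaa
Bccip: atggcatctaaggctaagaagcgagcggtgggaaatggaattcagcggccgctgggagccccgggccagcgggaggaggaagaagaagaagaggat
Cmya5: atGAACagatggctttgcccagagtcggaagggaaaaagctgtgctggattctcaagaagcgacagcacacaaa
Ndufab1: atggcgtctcgtgtcctctgcgcc
The Ndufaf4 stretch holds TGAC, GAAC and a second TGAC, and the Cmya5 stretch holds GAAC near its start. Brix1, Bccip and Ndufab1 hold none of the variants in the bases shown, but the bases read upstream of the printed start hold 1 GAAC in Brix1 and 1 TGAC in Bccip. The fold enrichment of IP over input was 8.05 for the Bccip peak, 3.32 for Brix1, 2.03 for Ndufab1, 1.80 for Ndufaf4 and 1.32 for this peak of Cmya5, all below the median of all muscle peaks, 12.9.

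The peaks without GGAC were short. Their exonic length had a median of 211 bases, with quartiles of 151 and 361 and a range from 117 to 1526. The median of CDS peaks with GGAC was 690 bases. A single exon block held 242 members (90.3%), and 26 crossed a splice junction. Lengths came in steps of 30 bases, within 1 base for 246 members. Random sequence with equal base frequencies and the same lengths would leave 303 CDS peaks (17.6%) without GGAC. This is above the 268 counted and above the upper limit of 17.3% of the observed share. But the reference covers the exon blocks alone, and 30 CDS peaks not among the 268 have GGAC listed only outside their blocks. Counting only positions inside the blocks, the share was 17.3% (interval 15.6 to 19.1), an interval that holds 17.6%. The comparisons with random sequence by length class and by gene list count all listed positions. By 5 classes of length with about equal numbers of CDS peaks, 154 members fell in the shortest class of 117 to 268 bases, where random sequence would leave 173. The next classes held 68 members against 87.9, 32 against 33.7, 12 against 8.04 and, for peaks from 1231 to 10796 bases, 2 against 0.640. Base composition of the peaks was not used here, so this reference knows only their length.

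**Figure D1:**
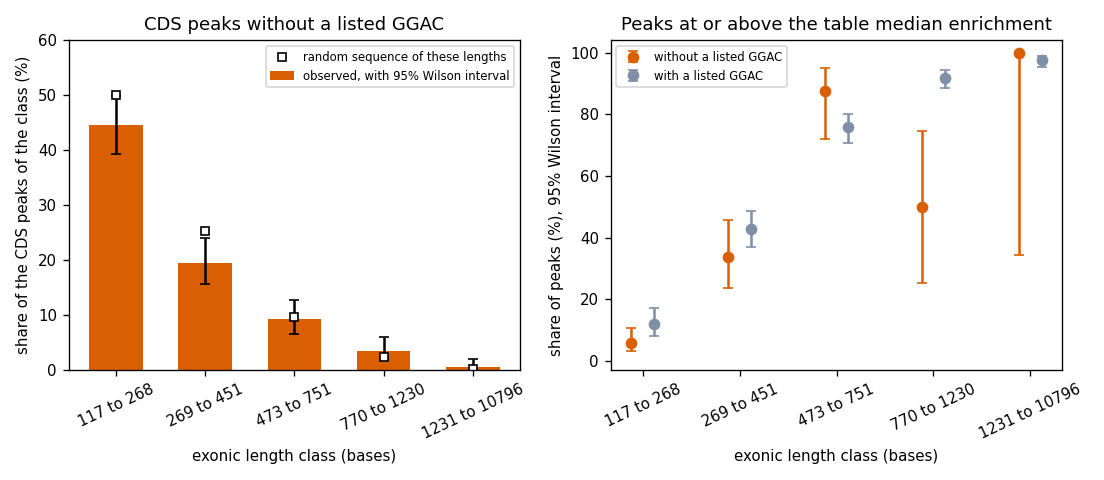
Left, share of CDS peaks without a listed GGAC in 5 classes of exonic length, as bars with 95% Wilson intervals, beside the share in random sequence of the same lengths as open squares. Right, share of peaks at or above a fold enrichment of 12.9 in the same classes for CDS peaks without and with a listed GGAC, with 95% Wilson intervals. The share without GGAC falls with length, while the order of the 2 kinds of peak changes between classes: those without GGAC are lower in 3 classes and higher in the third and the longest. Only in the fourth class does the interval of the difference leave out 0. The longest class has 2 peaks without GGAC, and in the third the median enrichments were 30.85 without GGAC and 30.75 with it.

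The fold enrichment of the peaks without GGAC had a median of 5.03 (95% interval of the median 4 to 5.7), with quartiles of 2.70 and 12.9. CDS peaks with GGAC had a median of 37.9, and all peaks of the table one of 12.9. Of all peaks, 50.1% stood at or above that table median. This was so for 68 of the 268 peaks without GGAC (25.4%, interval 20.5 to 30.9) and for 1018 of the 1458 with GGAC (69.8%). The difference was -44.4 percentage points (95% Newcombe interval -49.8 to -38.4). Enrichment rose in steps with the number of listed sites. The medians were 5.03 for 0 sites, 7.67 for 290 peaks with 1 site, 15.8 for 250 peaks with 2 sites and 77.0 for 918 peaks with 3 or more. Length rose with it, from a median of 211 bases through 271 and 449 to 1014. Peaks with a single listed GGAC, the nearest to the rule from outside, stood at or above 12.9 in 37.9%.

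Within classes of length the gap was smaller, and it did not keep its direction. In the shortest class 5.84% of the peaks without GGAC and 12% of those with GGAC stood at or above 12.9, a difference of -6.14 points (-12.1 to 0.0956). In the second class the shares were 33.8% and 42.7%, a difference of -8.83 points (-20.5 to 4.30). In the third class, from 473 to 751 bases, the peaks without GGAC were higher, 87.5% against 75.8%, by 11.7 points (-4.48 to 20.8). In the fourth, from 770 to 1230 bases, they were lower, 6 of 12 peaks against 91.8%, by -41.8 points (-66.6 to -17.0), and this is the only class whose interval leaves out 0. The longest class has 2 members, Zfp81 and Zfp52, both above 12.9. Peaks with GGAC, weighted to the length classes of those without, would stand at or above 12.9 in 31.6%, against the 25.4% measured.

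**Figure D2:**
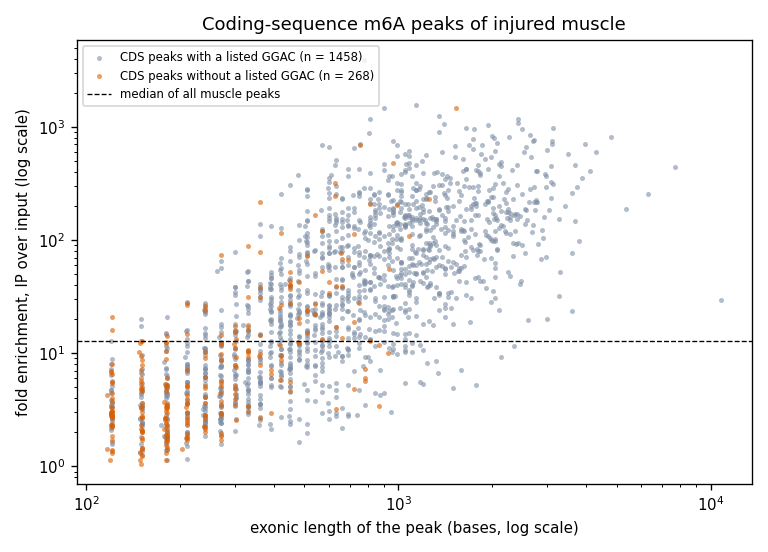
Exonic length (horizontal, bases, log scale) and fold enrichment of IP over input (vertical, log scale) of the 1726 CDS peaks, 268 without a listed GGAC in orange and 1458 with GGAC in grey. The dashed line is the median of all muscle peaks, 12.9. The orange points lie mostly at short lengths and low enrichment, apart from a few up to 1460, and those from 770 to 1230 bases lie lower than those from 473 to 751 bases, with 50% against 87.5% at or above the line.

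A few peaks without GGAC were among the most enriched of the table. The highest was that of Zfp81, a zinc finger protein, at 1460-fold over 1526 bases, which is rank 7 of all 5412 peaks. It lies at chr17:33334066-33335591, at 81.4% of the gene's span, and it is the gene's only peak. Rasa1, the RAS GTPase-activating protein that switches RAS off, followed at 692-fold (rank 66), with its peak split over 2 exon blocks at 98.0% of the span. The peak of Zscan12, a SCAN zinc finger protein, stood at 481-fold. Manea, a Golgi endomannosidase, stood at 317-fold and F2r, the thrombin receptor PAR1, at 243-fold. The next were Zfp52 at 230-fold, Fry at 218-fold, 2410089E03Rik at 206-fold and Tmtc3 at 203-fold. Fry is a large scaffold of cell polarity and Tmtc3 an O-mannosyltransferase of the endoplasmic reticulum. Helz, an RNA helicase, stood at 165-fold, Golga3, a golgin, at 121-fold and AC154141.1 at 115-fold. In all, 14 members (5.22%) reached 100-fold, against 448 (30.7%) of the CDS peaks with GGAC, and 5 of the 14 encode zinc finger proteins. Of the 12 highest, all but Tmtc3 lie on genes with no site-bearing peak. At the table median, the nearest members were Atf6b and Numa1 at 12.9 and Iscu at 12.7.

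The zinc finger list (Zfp, Zbtb, Zkscan and related symbols) holds DNA-binding repressors and other transcription factors, many with long arrays of fingers in a single last exon. It had 18 members on 17 genes among its 86 CDS peaks (20.9%, interval 13.7 to 30.7). Random sequence of these lengths would leave 8.20%. Its members had a median enrichment of 29.4, and 13 of the 18 reached 12.9. From the top, after Zfp81, Zscan12 and Zfp52, stood Zfp24 at 112, Zfp40 at 109 and Zfp870 at 88.8. The lowest were Zfp386 at 3.82 and Zfhx4 at 3.60. Zinc finger CDS peaks with GGAC had a higher median of 130, but they were also longer, with a median of 1167 bases against 420 for the members. Among those of at least 473 bases the median enrichments were 109 without GGAC and 149 with it. Among CDS peaks of at least 473 bases, 9 of 68 on the list had no GGAC (13.2%, interval 7.12 to 23.3), where random sequence would leave 1.75. Off the list it was 37 of 965 (3.83%), where random sequence would leave 40.6. The difference was 9.40 points (3.13 to 19.5). The 5 longest members were Zfp81, Zfp52 at 1252 bases, Zfp40 at 1077, Tmtc3 at 991 and Zscan12 at 959. The list and the length limit were set with earlier results known, and genes of this family are related in sequence, so its peaks are not independent of each other.

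**Figure D3:**
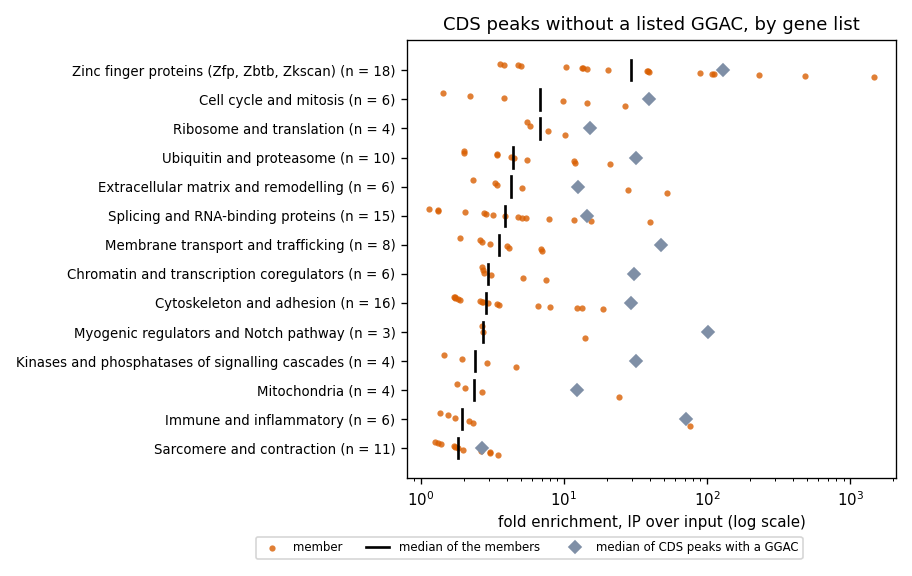
Fold enrichment (log scale) of each CDS peak without a listed GGAC on 14 gene lists, with the number of such peaks in brackets, the median of the members as a black bar and the median of the list's CDS peaks with GGAC as a grey diamond. Zinc finger proteins lie highest with a median of 29.4 and sarcomere proteins lowest with 1.83, and on every list drawn the members' median is below the diamond. Lengths are not matched, and on every list drawn the members also have the shorter median length.

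At the other end, 37 members (13.8%) stood below 2-fold, against 26 (1.78%) of the CDS peaks with GGAC and 3.46% of all peaks. Low enrichment did not mean a weak peak p. The deposited peak p was at most 1e-05 in 32 of these 37, and at most 1e-20 in 18. All 6 peaks of the table on the mitochondrial genome are members. The lowest value of the whole table, 1.06-fold, belongs to mt-Nd5, with a deposited peak p of 7.9e-20. The peaks of mt-Nd2 stood at 1.14 and 1.13, mt-Nd6 at 1.43, mt-Atp6 at 2.16 and mt-Nd3 at 4.27. These genes encode subunits of respiratory complex I and, for mt-Atp6, of the ATP synthase. The other members among the 5 lowest were Ddx21, a nucleolar RNA helicase, at 1.15 and Htatsf1, a splicing-associated factor, at 1.24. Over all members the deposited peak p was listed at 0 for 14 and was at most 1e-05 for 225 (84.0%). For the CDS peaks with GGAC this last share was 96.5%. A peak p falls with the number of reads as well as with enrichment, and the number of reads is not in the table.

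The sarcomere list had the lowest median of any list. It had 11 members on 7 genes among 49 CDS peaks (22.4%, against 32.3% in random sequence of these lengths). Their enrichment ran from 1.26 to 3.45 with a median of 1.83, 7 of 11 were below 2, and none reached 12.9. The list's CDS peaks with GGAC were low too, with a median of 2.69. Ttn alone has 27 listed peaks, most of them CDS peaks with GGAC. The list's share without GGAC, its random-sequence value and this median therefore rest largely on a single gene. Mybph, a myosin-binding protein, stood at 3.45, Pdlim5, a Z-disc protein, at 3.07 and Mylk, myosin light chain kinase, at 3.05. Ttn, the giant spring protein of the sarcomere, had members at 2.66 and 1.99, both with a peak p listed at 0. The members of Cmya5 stood at 1.83, 1.73 and 1.32, those of Xirp2, an actin-binding protein of muscle, at 1.39 and 1.26, and that of Mybpc2, fast myosin-binding protein C, at 1.70.

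The cytoskeleton and adhesion list had 16 members among 81 CDS peaks (19.8%, against 17.9% in random sequence of these lengths). Their median enrichment was 2.85 at a median length of 211 bases, against 29.3 at 750 bases for the list's peaks with GGAC. The highest members were Arhgap5, a GTPase-activating protein, at 18.9, Map1b, a microtubule-associated protein, at 13.4, Diaph1, an actin-nucleating formin, at 12.3 and Dst, a linker of cytoskeletal filaments, at 7.95. The tubulin genes Tuba1c, Tuba1a and Tuba1b stood at 3.39, 2.97 and 2.70. They are nearly identical in sequence, so reads may be shared between them and these values are uncertain. The extracellular matrix list gave 6 members of 29 CDS peaks (20.7%, against 25.2% in random sequence), led by Vcan at 52.5 and Col6a3 at 27.9. Vcan is a large matrix proteoglycan and Col6a3 a chain of collagen VI, and Adamts12, a matrix protease, followed at 5.10.

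Of 55 CDS peaks on the splicing and RNA-binding list, 15 had no GGAC (27.3%, interval 17.3 to 40.2, against 23.8% in random sequence), with a median of 3.91. Rbm34 stood at 40.2, Cpsf1, the large subunit of the cleavage and polyadenylation specificity factor, at 15.4, Pnn, a splicing-associated nuclear protein, at 11.8 and Srsf11 at 7.83. The ribosome and translation list had 4 members of 26 (15.4%, against 25% in random sequence), Rpl24 at 10.2, Larp4b at 7.80, Mrpl32 at 5.85 and Eif3a at 5.54. The ubiquitin list had 10 of 66 (15.2%, against 18.4%), led by the ubiquitin ligases Rnf187 at 21.0 and Trim30a at 11.9. The chromatin and coregulator list had 6 of 69 (8.70%, against 14.8% in random sequence), among them the Mediator subunit Med15 at 5.22 and the coactivator Ncoa6 at 2.67. The cell cycle list had 6 of 45 (13.3%, against 17.9%), with the spindle protein Aspm at 26.9 and the kinetochore scaffold Knl1 at 14.5. Drawn by symbol, it also holds Cdc42bpa, a cytoskeletal kinase, at 9.9 and Kif1b, a transport kinesin, at 3.8. It misses the mitotic proteins Ckap5 at 66.3 and Sgo2a at 27.2, which are members. Its share is therefore not that of all cell cycle genes.

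The immune list had 6 members of 43 (14%, against 14.9% in random sequence). Csf3r, the receptor for granulocyte colony-stimulating factor and the neutrophil marker present in the table, stood at 76.2. The others lay at 2.31 or below, among them Cd47, a signal against phagocytosis, at 2.31, the macrophage lectin Siglec1 at 2.16 and the mannose receptor Mrc1 at 1.73 and 1.55. The membrane transport list had 8 of 38 (21.1%, against 21.1%), with the calcium pump Atp2b1 at 7.07 and the small GTPase Rab12 at 6.90. A short list of nuclear genes for mitochondrial proteins had 4 of 9 (44.4%, interval 18.9 to 73.3, against 29.5%), with Ndufaf7, a complex I assembly factor, at 24.3. Other such genes lie off it, among them the members Iscu and Fastkd5, and Mrpl32 is on the ribosome list. The share is therefore that of these few symbols and not of all nuclear genes for mitochondrial proteins. The list of signalling kinases and phosphatases had 4 of 46 (8.70%, interval 3.43 to 20.3, against 18.6%), from 4.65 for Dusp27 to 1.45 for Map4k4. It was drawn by symbol and misses other kinases among the members, such as Hipk1 at 12.4 and Wnk1 at 5.69. Its share and range are therefore not those of all kinases and phosphatases. The myogenic and Notch list had 3 of 9 (33.3%, against 24.6%). They were Notch4 at 14.1, Itga7, the laminin-binding integrin chain of muscle stem cells and myofibres, at 2.73 and Notch1 at 2.70, a peak of 121 bases with a deposited peak p of 0.00011. Both Notch receptors had a stronger CDS peak with GGAC, at 138 for Notch4 and 23.4 for Notch1. No member lies on the m6A machinery list, which has 4 CDS peaks, or on the calcium handling list, which has 3. On no list were 153 members, with a median of 6.00.

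Many of the genes had no other peak. The members were the only listed peaks of 140 of the 241 genes (58.1%), and 87 genes (36.1%) had at least 1 peak with GGAC elsewhere. On these 87 genes lie 106 members, of which 85 (80.2%) were lower than the gene's strongest site-bearing peak, with a median ratio of 0.269. The other 21 were higher, the widest differences being 203 against 18.5 in Tmtc3 and 112 against 4.64 in Zfp24. Col6a3 stood at 27.9 against 3.46, Gcc2 at 42.6 against 10.6 and Pnn at 11.8 against 2.98. The strongest peak was taken from all site-bearing peaks of a gene, and lengths were not matched. Members were thus likely to be lower from the way the comparison was set. Of the 106 members, 38 lay within 500 bases of a site-bearing peak of their gene. The members on these genes had a median of 4.43 and the other 162 members one of 5.41.

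More than 1 member was found on 20 genes, which hold 47 members. Ahnak, a giant scaffold protein encoded almost wholly by 1 exon, has 5, at 1.75, 6.58, 1.70, 1.87 and 1.83 from the 5′ end. They are scattered along the exon among site-bearing peaks that reach 12.5. Naca, whose muscle isoform carries a long additional exon, has 4 between 5.233 and 8.23 kb from the gene start, at 5.64, 6.00, 3.28 and 4.81. They lie between site-bearing peaks of 10.8 and 2.88. The Vcan members, at 52.5 and 3.43, lie on both sides of a site-bearing peak of 152. Those of Prune2, at 67.5 and 15.2, precede site-bearing peaks that reach 289. Srrm2, a splicing coactivator, has members at 2.85 and 5.43 ahead of a peak of 55.3 with 3 sites. Tmem94 has 3 members, at 8.70, 4.6 and 9.9, each above its site-bearing peak of 2.55.

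Of the remaining genes with more than 1 member, Nbeal1 stood at 17.9 and 10.1, Zfp386 at 14.5 and 3.82 and Trip11, a golgin, at 10.1 and 1.77. Thrap3, a splicing and Mediator-associated protein, stood at 7.30 and 3.65. Srebf2, the transcription factor of cholesterol synthesis, stood at 5.48 and 2.36 and Tox4 at 5.13 and 2.34. The members of Zswim8, a ubiquitin ligase receptor, stood at 4.61 and 3.11. Those of Ddx21 stood at 2.05 and 1.15. The members of Hnrnpf, at 1.33 and 1.32, overlap each other.

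**Figure D4:**
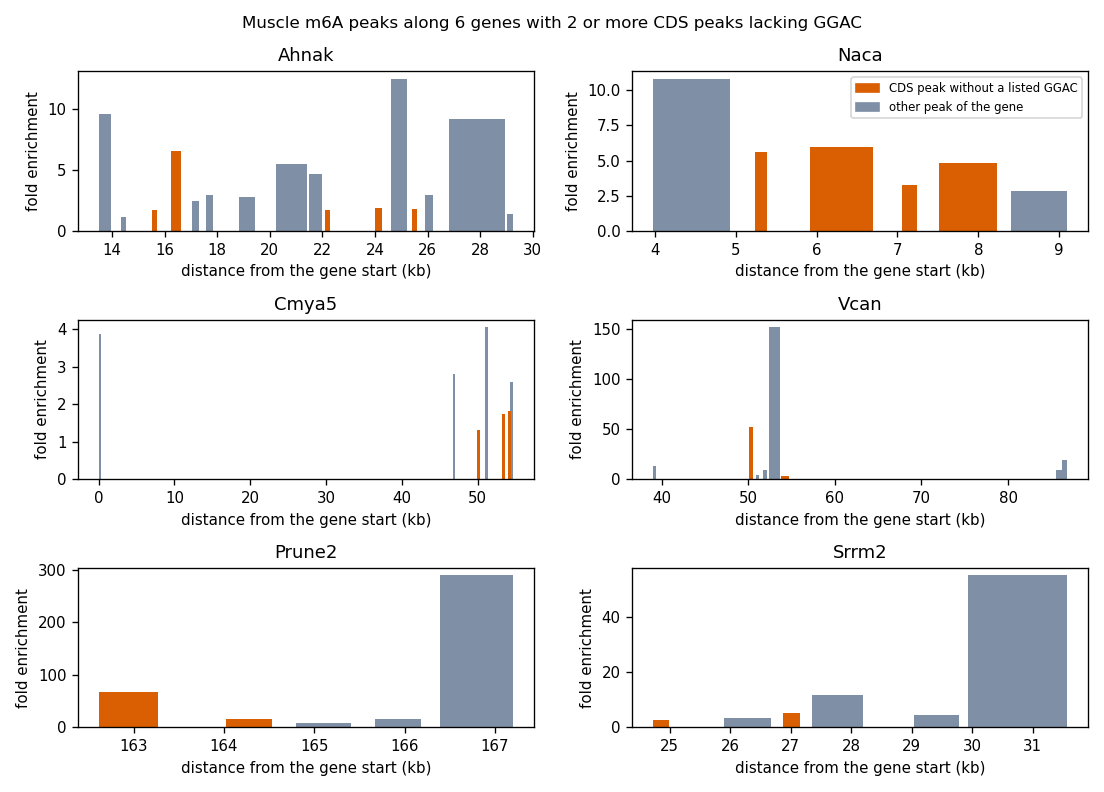
Peaks along 6 of the genes with 2 or more CDS peaks without a listed GGAC, by distance from the gene start (kb) and fold enrichment, with a separate vertical scale for each gene. Orange bars are CDS peaks without GGAC and grey bars the other peaks of the gene, and in each of these 6 the highest bar is grey. Over all 20 such genes the highest peak is a CDS peak without GGAC in 8, of which only Tmem94 has a site-bearing peak.

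The place of the peaks in the gene differed little from that of other CDS peaks. For the 253 members that lie inside the RefSeq span of their gene, the centre stood at a median of 71.7% of the span from the gene start, against 70.8% for CDS peaks with GGAC. The stretch from 80% of the span to its end held 36.8% of the members (interval 31.1 to 42.9) and 41.4% of the others. A span counts introns, so this is not a place in the mRNA. For 9 members another gene's peak covers the same bases, on the opposite strand in 5. The pairs Tm9sf1 with AC174678.2, at 2.90, and Ppt2 with Gm20460, at 5.30, share strand and enrichment and are each 1 signal listed under 2 genes. The mt-Nd5 and mt-Nd6 members overlap on opposite strands. Dalrd3, Birc6 and Sgo2a overlap a peak of Wdr6, Gm26749 and Kctd18 on the other strand. The libraries were made with a strand-specific kit, but whether strand was used in calling is not stated, so these values are uncertain.

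Presence in a second list was asked of the genes, since the C2C12 peaks come from other libraries. C2C12 is a mouse myoblast line, and its list was made from 2 IP libraries and 1 input library. In the labels both of these IP libraries carry the genotype knockout, whereas the input is labelled normal. The list gives no enrichment, so only the presence of a gene was used. Of all muscle genes that could be matched, 42% (1599 of 3811) are in the C2C12 list. Of the matched genes with a CDS peak without GGAC, 94 of 231 (40.7%, interval 34.6 to 47.1) are in it. Of genes whose CDS peaks all have GGAC it was 623 of 1171 (53.2%), a difference of -12.5 points (-19.3 to -5.46). Split by their other peaks, the 145 matched genes without any site-bearing peak reached 29.0% and the 86 with one reached 60.5%.

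Peak length moves with this comparison as well. In classes of the length of the gene's longest CDS peak, the share in the C2C12 list rose in both kinds of gene. It went from 29.2% to 70.6% in genes with a member and from 32.2% to 69.0% in the others. The differences within the 5 classes were -3.03, 3.47, -5.86, -1.28 and 1.58 points, and every interval includes 0, the narrowest being -14.4 to 9.0. The 5 most enriched members, on Zfp81, Rasa1, Zscan12, Manea and F2r, are all on genes of the C2C12 list, whereas Zfp52 and Fry are not.

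**Figure D5:**
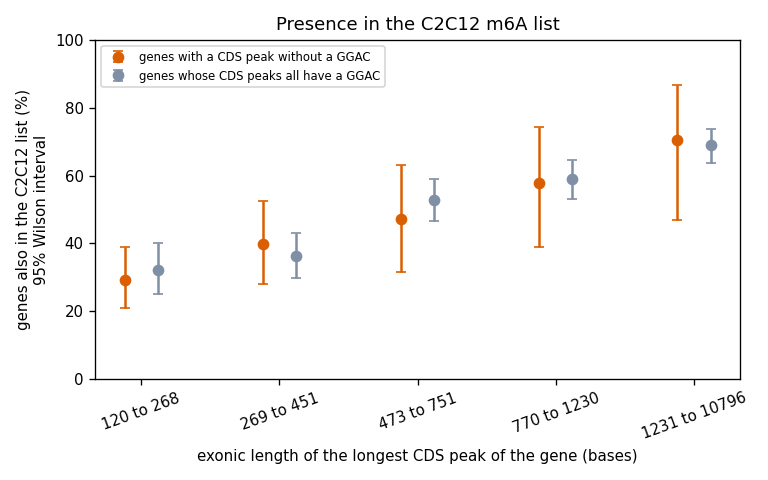
Share of muscle genes also present in the C2C12 list, in 5 classes of the exonic length of the gene's longest CDS peak, for genes with a CDS peak without a listed GGAC and for genes whose CDS peaks all have GGAC, with 95% Wilson intervals. The shares rise with length from about 30% and the intervals of the 2 kinds of gene overlap in every class.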

How the data were processed

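m6A MeRIP-Seq data of muscle (1 IP and 1 input library for METTL3 cKO and for CTL) and of C2C12 cells (2 IP and 1 input) were used as 2 peak lists. The authors mapped the reads, called peaks and deposited the lists; the submitters' processing notes name TopHat, MACS2 and mm10 without roles, while the muscle column names are those of exomePeak. For each muscle peak the authors deposited a fold enrichment (a ratio of IP over input), the peak's p-value (0 for the strongest) and the positions of GGAC. Columns with the log2 fold, p-value and FDR of the authors' own genotype comparison entered no result. The FDR was read only to describe which peaks are listed. The lists hold no counts, so depth and limits of detection are unknown. Columns of single samples left out numbered 0.

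Members were taken by script in Python 3.11.15 (scipy 1.17.1, numpy 2.4.6, pandas 2.3.3), with figures from matplotlib 3.10.9. The members and gene lists were chosen with earlier results of these data known. Gene lists are patterns of gene symbols, so a list can miss genes of its class and hold genes of another. Shares carry 95% Wilson intervals, differences Newcombe intervals and medians order-statistic intervals, all for counting error only and with regions treated as separate. No p was computed across regions. Lengths are summed exon blocks, and length classes split all CDS peaks into 5 sets of about equal size. The share without GGAC in random sequence was computed exactly for each length and tested on simulated data. Genes named are the 12 highest, 5 lowest and 5 longest members, members on genes with 2 or more, and up to 4 of each list. Also named are those on which a single comparison turns and examples of what a list misses, chosen after their values were seen. Muscle genes were matched to RefSeq (GRCm38.p6) by symbol or unique synonym (231 of 241 member genes, 95.9%) and C2C12 genes by transcript accession (3930 of 3970). Of 14306 listed GGAC positions, 902 lie outside the exon blocks of their peak. No genome sequence was used, so planned readings of GGAC and of its variants across and around whole peaks were not made. A gene that the rule selects is left out of the text.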

Additional observations from a re-analysis of the deposited data

How the results depend on the processing

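The share of CDS peaks without GGAC, 15.5%, moved with the peaks counted. It was 18.9% in peaks of 1 exon block, 13.2% with 1 peak per gene, 13.9% at a fold enrichment of at least 2, 13.8% at a peak p of at most 1e-05 and 6.26% at or above the table median. It stayed within its interval without the mitochondrial genome (15.2%) and when only listed positions inside the exon blocks counted (17.3%, as 30 CDS peaks have GGAC only outside their blocks), both chosen after seeing the data. The median enrichment of the members was 6.14 on genes with 1 listed peak and between 4.71 and 5.52 under the other 5 alternatives, among them leaving out the zinc finger list (4.71) or the mitochondrial genome (5.13), also chosen after seeing the data.

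The difference in the share at or above the table median, -44.4 points, became -6.14 and -8.83 in the 2 shortest length classes. It turned to 11.7 and 2.34 in the third and the longest, and the intervals of all of these classes include 0. Under the other 6 alternatives it kept its sign with intervals below 0, from -42.4 to -12.0, including the fourth length class and, chosen after seeing the data, peaks with 1 listed GGAC (-12.6). The difference in presence in the C2C12 list, -12.5 points, was -15.2 for C2C12 peaks in coding exons, -12.8 with genes matched by symbol and -24.2 for genes without any site-bearing peak. For genes with one, an alternative chosen after seeing the data, it turned to 7.26 (-3.68 to 17.4). The cause of these changes was not tested. Alternatives that need a genome were not run. No paired analysis was possible because no result compares groups of samples. With depth unknown, a GGAC-free peak of low enrichment cannot be set against the reads behind it.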
